A study of Mus musculus with 2 samples.

Results

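Adventitial fibroblasts were taken from single-cell RNA sequencing of mouse aorta as the barcodes that combined high Dcn with a panel of 5 adventitial genes. A barcode was a member with at least 1500 UMIs (unique molecular identifiers, the tags that count transcripts) and at most 20% of them from mitochondrial genes. It also needed Dcn at 5000 CPM or more (UMIs of the gene per 1000000 UMIs of that barcode) and at least 4 UMIs over Clec3b, Serpinf1, Pi16, Dpt and Igfbp6. Barcodes were left out at 8000 CPM or more over the smooth muscle genes Acta2, Tagln and Myh11, at 500 CPM or more over the macrophage genes C1qa, C1qb and C1qc, or at 5 or more UMIs over the cartilage genes Acan, Col2a1, Chad and Cytl1. The rule gave 804 members among the 19995 barcodes that passed the UMI and mitochondrial limits, and among 28892 barcodes in all.

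The series held 1 wild-type aorta library and 1 aorta library titled Kif13b-/-, whose genotype label instead reads knock down. It is called the library labelled Kif13b-/- throughout. By its title the series is about macrophages, in which KIF13B, a kinesin motor, is tied to the receptor MERTK and the uptake of dying cells in atherosclerosis. The labels state neither strain, age, diet and number of animals nor which part of the gene was altered. Each genotype had 1 library, so animals could not be compared by a test, and the 95% intervals reflect the error of counting UMIs and nothing else.

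The adventitia is the outer coat of an artery, a loose collagen-rich layer that holds nerves, small vessels, fat and immune cells. Its fibroblasts make collagens, elastic fibre parts and small proteoglycans, and they release chemokines, complement proteins and growth factors. Fibroblasts marked by Pi16 and Dpp4 are known across tissues as a group lining the outer connective tissue, and a Col15a1-marked group is known to lie within the tissue near the basement membranes.

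The members numbered 424 in the wild-type library and 380 in the library labelled Kif13b-/-. They held 3773841 and 5106994 UMIs, with medians of 5721 and 8012 UMIs per barcode and ranges of 1500 to 45958 and 1535 to 56448. The deepest 10% of the members held 30.0% of the wild-type UMIs and 29.4% of those in the library labelled Kif13b-/-, so pooled levels leaned on deep barcodes. The median mitochondrial share was 2.52% and 4.05% in the members, against 5.44% and 8.23% in the other kept barcodes. The libraries had 52 barcode sequences in common, of which 6 belonged to members of either library and 0 to members of both.

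The genes of the rule describe the members and support nothing beyond that. Dcn, which encodes the collagen-binding proteoglycan decorin, stood at 11062 CPM in the pooled wild-type members and at 11226 CPM in those labelled Kif13b-/-. Clec3b, the gene of tetranectin, stood at 306 and 288 CPM. Serpinf1, the gene of pigment epithelium-derived factor, stood at 372 and 346 CPM. Dpt, the gene of the matrix protein dermatopontin, stood at 604 and 597 CPM, and Igfbp6, a binding protein of insulin-like growth factor 2, at 377 and 359 CPM. The pooled levels of these 5 genes differed little between the libraries, with log2 ratios of the library labelled Kif13b-/- over wild-type from -0.11 to 0.02. Over 21 other settings of the processing Igfbp6 ranged from -0.99 to 0.03 and Clec3b from -0.29 to 0.49. Igfbp6 was beyond a ratio of 1.5 in 4 of them. Its UMIs were found in 57.1% of the wild-type members and 48.9% of those labelled Kif13b-/-.

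Pi16, which encodes a secreted peptidase inhibitor, differed more: 764 wild-type UMIs gave 202 CPM and 1990 UMIs gave 389.7 CPM in the library labelled Kif13b-/-. The log2 ratio was 0.94 (0.82 to 1.07). At least 1 Pi16 UMI was found in 40.8% of the wild-type members and 57.6% of those labelled Kif13b-/-. After each member had been thinned to 1500 UMIs, for which no member was too shallow, these shares were 25.2% and 36.3%. Contractile smooth muscle barcodes, which should lack the gene, gave 0.661% and 0.463% after the same thinning, at median depths of 6579.5 and 11321 UMIs before it. As Pi16 is part of the rule, these values are a description. Pi16 lies at chr17:29317680-29330593 (mm10, plus strand).

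**Figure D1:**
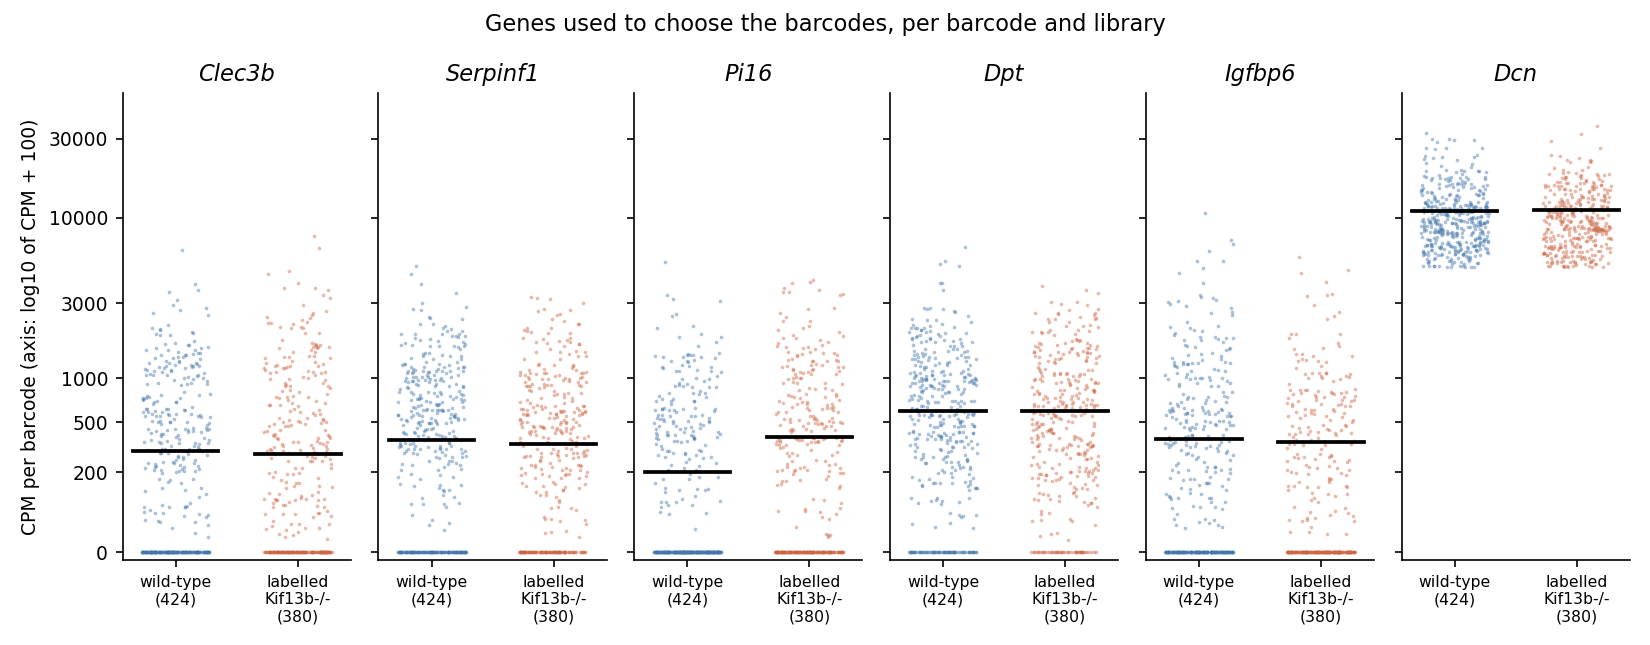
Level of each gene of the rule in each member barcode, in CPM on an axis of log10(CPM + 100); points are barcodes, black bars are the pooled level of the library, and the numbers under the groups count barcodes. The pooled Pi16 level sits at 202 CPM in wild-type and 389.7 CPM in the library labelled Kif13b-/-, while the bars of the other 5 genes lie close together.

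Panel genes were seldom found all together in a barcode. Of the wild-type members 10.4% had UMIs of only 1 panel gene and 13.0% had UMIs of all 5. In the library labelled Kif13b-/- these shares were 8.95% and 17.1%. At the limits, the 68 wild-type barcodes with exactly 4 panel UMIs held Lum at 9336 CPM and Pdgfra at 123 CPM. The 96 with 3 panel UMIs, which met the other UMI, mitochondrial and gene limits, held Lum at 8309 CPM and Pdgfra at 84.7 CPM. In the library labelled Kif13b-/- the 38 barcodes inside and 61 outside held Lum at 8629.9 and 8994 CPM. At the Dcn limit, 42 wild-type barcodes between 5000 and 6000 CPM and 52 between 4000 and 5000 CPM held panel sums of 1507 and 1592 CPM.

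The label was checked against marker genes of other cells. Fibroblast genes outside the rule were high in both libraries: Lum at 6500.3 and 7457 CPM, Col1a1 at 3692 and 4245 CPM, and Pdgfra, the receptor that marks fibroblasts, at 212 and 205 CPM. The 7 smooth muscle markers summed to 1209 and 1174 CPM, the 6 pericyte markers to 647 and 489 CPM, and the 6 chondrocyte markers to 428 and 457 CPM. The 6 endothelial markers summed to 127 and 142 CPM, the 6 macrophage markers to 35.2 and 62.3 CPM, and the 6 T or NK cell markers to 5.83 and 2.74 CPM. Of the Schwann cell markers Sox10 and Kcna1 were at 0 in both libraries, as were Epcam and Krt5 of epithelium, Msln and Upk1b of mesothelium, Mmrn1 of lymphatic endothelium and Lep of fat cells. Other markers of these classes were present, such as S100b of glia at 29.4 and 36.0 CPM, Cfd of fat cells at 29.9 and 14.7 CPM, and Pdpn, which fibroblasts also express, at 98.3 and 112 CPM. A count of 0 allows up to 0.795 CPM in the wild-type pool and 0.587 CPM in the pool labelled Kif13b-/-. The 6 markers of modulated stromal cells, the matrix-making cells of diseased artery wall, summed to 14654 and 14249.9 CPM, most of it Spp1, the gene of osteopontin, at 13729.8 and 13133 CPM. By these markers the members were not fibroblasts of a single kind.

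Clustering the members alone gave 8 sub-clusters, numbered 0 to 7, each described by the genes that led it over the other members. Sub-cluster 0 held 53 wild-type barcodes and 63 of the library labelled Kif13b-/-, and was led by Sdk1, Ptx3, Chl1, Ccl11 and Cxcl14. Sub-cluster 2 held 152 and 92 barcodes and was led by Abca8a, Lsamp, Abca8b, Apod and F3. These carried the panel: its 5 genes summed to 3735 and 3049 CPM in sub-cluster 0 and to 3574 and 4560.4 CPM in sub-cluster 2. Sub-cluster 1 held 119 and 126 barcodes, was led by H2-Aa, Cd74, Ccl4, Rgs5 and Cnn1, and had a panel sum of 1183 and 1245 CPM. Its 7 smooth muscle markers summed to 2747 and 2655 CPM, against 223 and 316 CPM in sub-cluster 0.

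Sub-cluster 4 went furthest against the label. It held 67 wild-type barcodes and 65 of the library labelled Kif13b-/-, and was led by Cdkn2a, Parvb, Mmp13, Spp1 and Slurp1. Its panel genes summed to only 549 and 481 CPM, Pi16 stood at 4.64 and 7.62 CPM, and Spp1 stood at 30018 and 27738 CPM. Its barcodes were the deepest, with medians of 19607 and 26398 UMIs, and they held 34.2% and 33.4% of all member UMIs. With so many UMIs per barcode a low level still passed the minimum of 4 panel UMIs. These barcodes are therefore called by number and not as adventitial fibroblasts. The share of members and the pooled levels still count them, and values without them are given for some results.

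The remaining sub-clusters were small. Sub-cluster 3, with 19 and 15 barcodes, was led by the endothelial genes Kdr, Gpihbp1, Egfl7, Cyyr1 and Cdh5. Sub-cluster 6, with 5 and 9 barcodes, was led by Car3, Adipoq, Cfd, Apoc1 and Cyp2f2, and Adipoq and Cfd are genes of fat cells. Sub-cluster 5 held 9 wild-type barcodes and 0 of the library labelled Kif13b-/-, and sub-cluster 7 held 0 and 10. The panel genes summed to 1774 CPM in sub-cluster 5 and to 5146 CPM in sub-cluster 7, so sub-cluster 7 also carried the panel. Whether these small groups reflect single fibroblasts or mixed droplets was not tested.

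**Figure D2:**
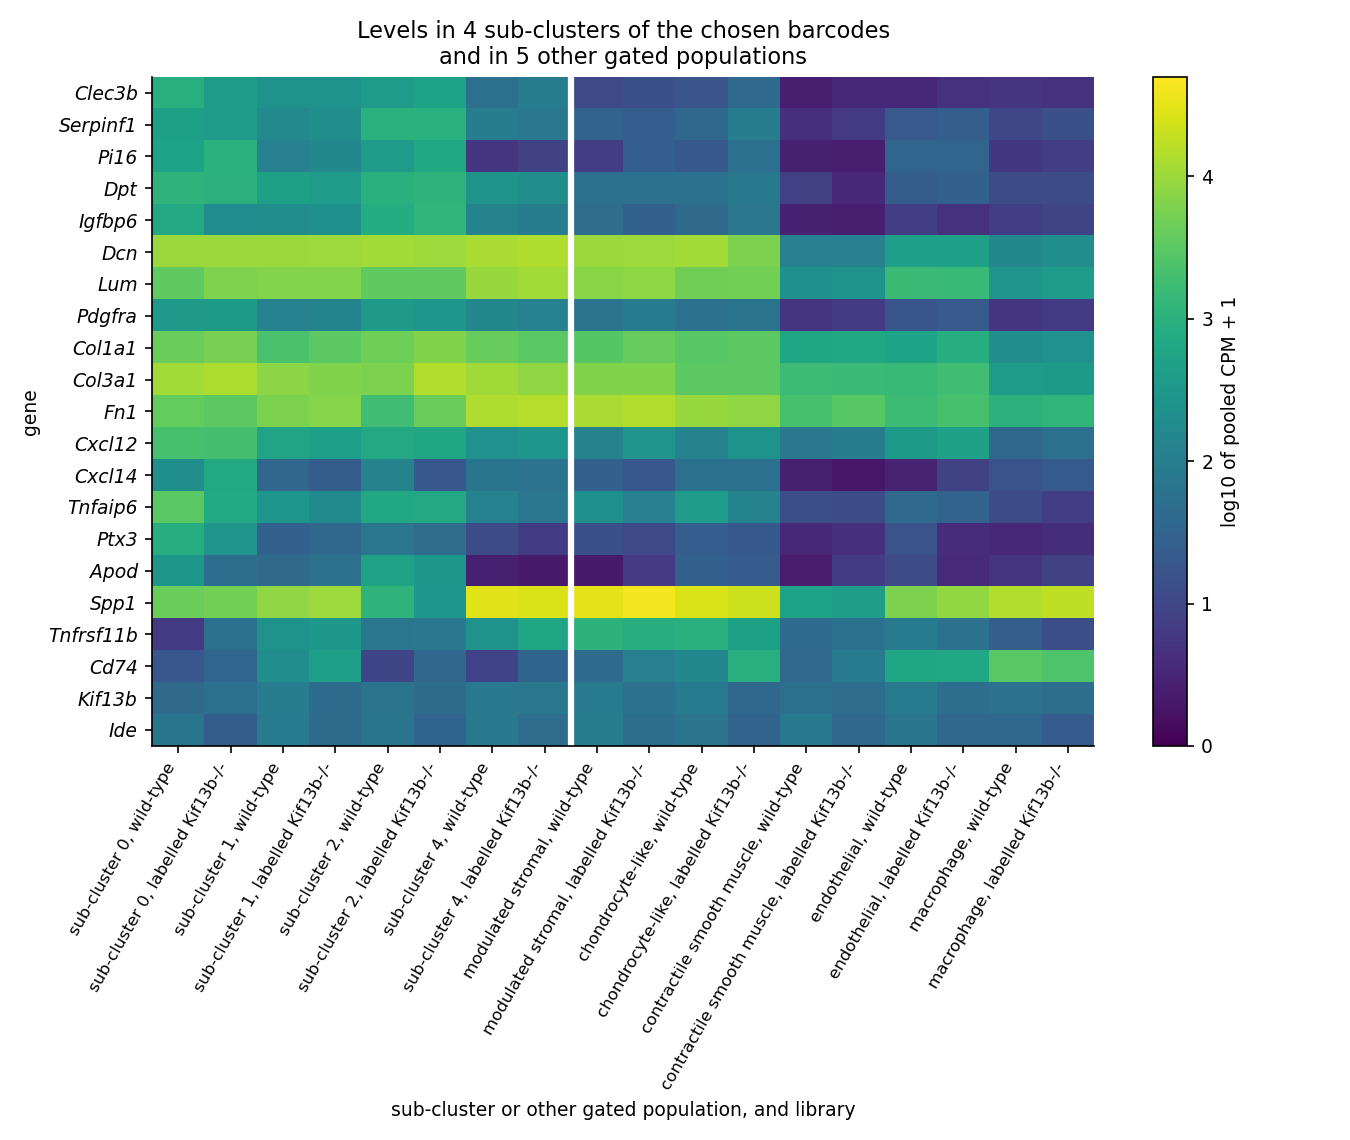
Pooled level of 21 genes, as log10 of CPM + 1, in the 4 sub-clusters with at least 50 barcodes in each library (left of the white line) and in 5 other populations chosen by marker limits (right of it), each per library. The panel genes in the top rows are bright in sub-clusters 0 and 2 and dark in sub-cluster 4, where Spp1 is near its level in modulated stromal barcodes.

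Members with a Pi16 UMI differed from those without in the same direction in both libraries for several, but not all, genes of both fibroblast types. Of the Col15a1 type, Smoc2, a matrix protein that binds calcium, stood at 362 CPM with Pi16 and 70.2 CPM without in wild-type, and at 392 and 41.5 CPM in the library labelled Kif13b-/-. Cxcl12 of the same type stood at 1346 and 452 CPM, and at 1180.1 and 457 CPM. Of the Pi16 and Dpp4 type, Cd55, which shields cells from complement, stood at 192 and 65.4 CPM, and at 220.0 and 35.9 CPM. Scara5, a ferritin receptor, stood at 169 and 46.7 CPM, and at 165 and 29.8 CPM. Uchl1 went the other way, with 16.4 and 82.9 CPM in wild-type and 33.2 and 114 CPM in the library labelled Kif13b-/-. Efhd1 and Fgf7 changed sign between the libraries. Their log2 ratios of barcodes with Pi16 over those without were 0.28 and -0.47 for Efhd1, and -0.05 and 0.53 for Fgf7. Limch1 was at -0.17 in both libraries, with intervals that included 0. Dpp4 itself was sparse, with 20 UMIs in each library. The barcodes without Pi16 were deeper, with medians of 7936 and 15295 UMIs against 4494 and 5992, and only 5.97% and 7.69% of the barcodes in sub-cluster 4 had a Pi16 UMI.

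Against the other populations, the panel genes are part of the rule and their contrast is a description. Pi16 stood at 6.22 and 24.1 CPM in modulated stromal barcodes (Crabp2, Cst6 and Grem1), at 18.7 and 51.9 CPM in chondrocyte-like barcodes, and at 33.4 and 32.9 CPM in endothelial barcodes. Dcn did not set the members apart from modulated stromal barcodes (9960.4 and 10131 CPM) or from wild-type chondrocyte-like barcodes (11110.3 CPM), although it stood at only 110.3 and 110.9 CPM in contractile smooth muscle. Pdgfra, which the rule did not use, stood at 62.2 and 87.4 CPM in modulated stromal barcodes and at 53.3 and 63.5 CPM in chondrocyte-like barcodes, each below the 212 and 205 CPM of the members. With a single library of each genotype these contrasts have no test.

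Kif13b (chr14:64647265-64809617, mm10, plus strand) was the first gene compared between the libraries. It had 278 UMIs in the wild-type members and 284 in those labelled Kif13b-/-, or 73.7 and 55.6 CPM, which is -0.40 (-0.65 to -0.16) as a log2 ratio. Members of the library labelled Kif13b-/- thus had less Kif13b RNA per UMI but still had it, in 134 barcodes. Within sub-clusters 0, 1, 2 and 4 the log2 ratios were 0.28, -1.08, -0.51 and -0.04. Reads from the 3' end check a deletion only where they cover the deleted part, so these counts do not settle the label.

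Members made up 3.11% (2.82% to 3.41%) of the kept wild-type barcodes and 5.99% (5.42% to 6.60%) of the kept barcodes labelled Kif13b-/-, a ratio of 1.93 (1.68 to 2.22). Of the 424 and 380 members, sub-clusters 0, 2 and 7, which had the highest panel sums, held only 205 and 165. No share was computed for these sub-clusters alone. The panel minimum is a number of UMIs and the library labelled Kif13b-/- was deeper, with a median of 6609.5 against 3465 UMIs over all kept barcodes. The cartilage limit is also a number of UMIs. As the last step it took the barcodes left from 638 to 424 in wild-type and from 452 to 380 in the library labelled Kif13b-/-. In another setting every barcode was thinned to 1500 UMIs before the rule, with a panel minimum of 2 and the cartilage limit still at 5 UMIs. The shares were then 3.00% and 4.60%, and the ratio was 1.54 (1.32 to 1.79). How far dissection, dissociation or loading set these shares was not tested, and both libraries held more barcodes than the 6000 cells loaded.

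Across the members 10359 genes had at least 50 UMIs over both libraries. A gene is called higher or lower here at a pooled ratio of 1.5 or more in either direction. On that rule 393 genes (3.79%) were higher and 419 (4.04%) were lower in the library labelled Kif13b-/-, and for 297 and 341 of them the counting interval excluded equal levels. The median log2 ratio was -0.03 and the percentiles 5 and 95 were -0.53 and 0.53. Centred on the median of genes with at least 200 UMIs, the counts were 498 and 342, so the share of calls that were higher moved from 48.4% to 59.3%. The split between higher and lower calls therefore depends on the scaling and is not read further. Without sub-cluster 4, 428 of 9200 tested genes (4.65%) were higher and 424 (4.61%) lower. In sub-clusters 0, 2 and 7 alone, 528 of 7249 tested genes (7.28%) were higher and 447 (6.17%) lower.

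**Figure D3:**
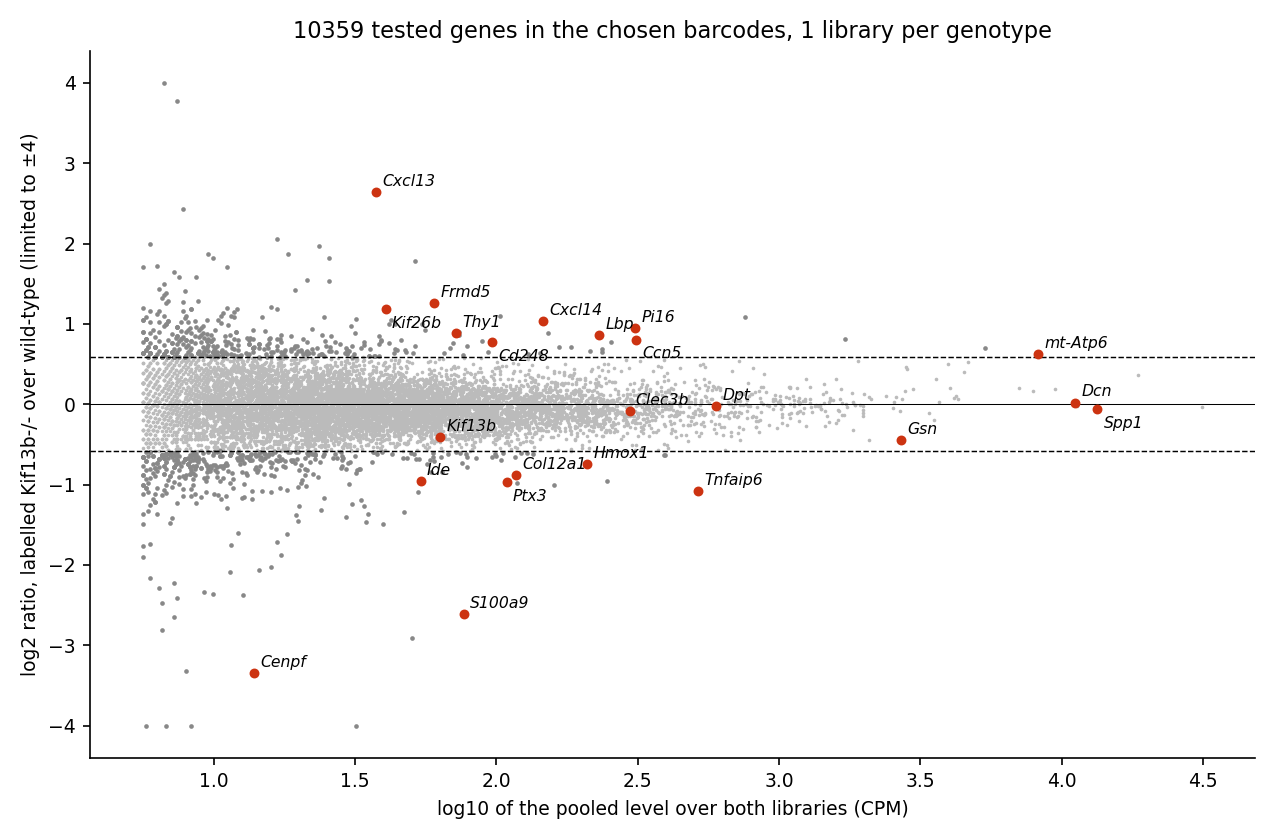
Log2 ratio of the library labelled Kif13b-/- over wild-type against the pooled level (log10 of CPM) for the 10359 tested genes in the members; dark grey points lie beyond a ratio of 1.5 (dashed lines), red points are named, and ratios are limited to ±4. Most genes lie near 0, including Dcn and Dpt, with Pi16 above and Tnfaip6 below the dashed lines.

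The 15 genes with the largest ratios among those at 50 CPM or more in either library, Pi16 among them, included several surface and matrix genes. Frmd5, a cytoskeletal adaptor with a FERM domain, stood at 33.4 CPM in wild-type and 79.9 CPM in the library labelled Kif13b-/-, a log2 ratio of 1.26 (0.97 to 1.56). Kif26b, an unusual kinesin of the Wnt5a pathway, stood at 23.3 and 53.3 CPM (1.19, 0.84 to 1.56). Cd248, or endosialin, a surface protein of fibroblasts and pericytes, stood at 68.4 and 117 CPM (0.77, 0.56 to 0.99). These 3 genes stayed beyond a ratio of 1.5 in each of the other settings that gave them at least 50 UMIs. These were 18 settings for Kif26b, 20 for Frmd5 and 21 for Cd248. Pi16 did so in 21 settings too, but it is part of the rule, so this is a description.

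Thy1, the surface marker CD90, stood at 48.5 and 89.5 CPM (0.88), and Ccn5, a matricellular protein, at 218 and 381 CPM (0.80). Lbp, which binds bacterial lipopolysaccharide, stood at 157 and 286 CPM (0.86), and Cxcl14, a chemokine of resting fibroblasts, at 91.2 and 187 CPM (1.03). Hsd11b1, which regenerates active glucocorticoid, stood at 29.7 and 50.3 CPM (0.76), and Spon1, or F-spondin, at 50.1 and 85.2 CPM (0.76). Kcnj15, a potassium channel, stood at 26.5 and 53.1 CPM (1.00), and Csgalnact1, which starts chondroitin sulphate chains, at 37.4 and 62.1 CPM (0.73). Each was higher in the library labelled Kif13b-/-. In that library UMIs of Cxcl14 lay in 79 barcodes and UMIs of Lbp in 187, and 1 wild-type barcode held 21.8% of the wild-type Cxcl14 UMIs. Sub-cluster 4 held 46.0% and 38.5% of the Ccn5 UMIs, and without it Ccn5 was at 0.97 and Csgalnact1 at 1.13. Except for Kcnj15, these calls ended in at least 1 other setting, with the lowest log2 ratios at 0.0082 for Spon1, 0.11 for Thy1, 0.14 for Cxcl14, 0.16 for Lbp, 0.32 for Ccn5, 0.35 for Hsd11b1 and 0.56 for Csgalnact1.

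Tnfrsf11b, or osteoprotegerin, stood at 180.2 and 308 CPM (0.77), and sub-cluster 4 held 48.4% and 63.4% of its UMIs. Bmpr1b, a receptor for bone morphogenetic proteins, stood at 49.3 and 92.2 CPM (0.90), and 1 barcode labelled Kif13b-/- held 19.5% of that library's UMIs. Olr1, a receptor for oxidised low-density lipoprotein, stood at 26.2 and 54.4 CPM (1.05), and 1 barcode held 36.7% of the UMIs in the library labelled Kif13b-/-. Without sub-cluster 4 Tnfrsf11b was at 0.26 and Olr1 at 0.36, both within a ratio of 1.5.

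Among the 15 genes with the lowest ratios was Tnfaip6. Tnfaip6 (chr2:52038009-52056686, mm10, plus strand) encodes TSG-6, a secreted protein that binds hyaluronan at sites of inflammation. It had 2788 UMIs or 739 CPM in wild-type and 1788 UMIs or 350.1 CPM in the library labelled Kif13b-/-, a log2 ratio of -1.08 (-1.16 to -0.99). Ptx3, a long pentraxin that acts with TSG-6 in hyaluronan matrices, stood at 151 and 77.1 CPM (-0.97), and Hmox1, which breaks down haem, at 273 and 163 CPM (-0.75). Akap12, a scaffold for protein kinases, stood at 97.5 and 58.7 CPM (-0.73), and Sdk1, a cell adhesion molecule, at 226 and 112 CPM (-1.01). These 5 genes were lower in the library labelled Kif13b-/-, and sub-cluster 4 held at most 14.4% of the UMIs of any of them in either library. For Ptx3, 1 barcode held 39.1% of the UMIs labelled Kif13b-/-. Tnfaip6, Ptx3 and Sdk1 were among the leading genes of sub-cluster 0, as were the higher genes Frmd5, Cxcl14 and Spon1. Sub-cluster 0 held 14.8% of the member UMIs in wild-type and 20.3% in the library labelled Kif13b-/-, and sub-cluster 2 held 21.1% and 18.3%. The part of these sub-cluster sizes in the pooled ratios was not tested.

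Col12a1, a collagen that decorates fibrils, stood at 159 and 86.0 CPM (-0.88, and -0.55 without sub-cluster 4, which held 54.6% and 42.1% of its UMIs), and Ntrk3, the neurotrophin-3 receptor, at 104 and 60.3 CPM (-0.78). Ide (chr19:37268743-37337852, mm10, minus strand), the insulin-degrading enzyme, stood at 74.7 and 38.6 CPM (-0.95, -1.22 to -0.69), Kmt5b, a histone methyltransferase, at 77.1 and 47.2 CPM (-0.71), and Rmnd5a, part of a ubiquitin ligase, at 73.7 and 44.1 CPM (-0.74). Ide and Kmt5b were spread evenly over barcodes, with at most 4.12% of a library's UMIs in any barcode, and stayed beyond 1.5 in each other setting that gave them at least 50 UMIs. In other settings Rmnd5a came to -0.064, Ntrk3 to -0.15 and, of the genes before, Akap12 to -0.036, Ptx3 to -0.22, Hmox1 to -0.26, Tnfaip6 to -0.31 and Sdk1 to -0.37. Ide was also lower in the library labelled Kif13b-/- in other populations, such as contractile smooth muscle (76.9 and 38.1 CPM) and macrophages (38.3 and 22.7 CPM), so its difference was not limited to the members.

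Retnlg and S100a9, genes of neutrophils, stood at 73.1 and 1.17 CPM and at 147 and 24.1 CPM, but 1 wild-type barcode held 99.6% and 90.1% of their wild-type UMIs. The 5 neutrophil markers summed to 326 and 41.5 CPM, and 1 wild-type barcode held 1143 of the 1230 wild-type UMIs behind that sum. Stmn1, which destabilises microtubules, stood at 54.6 and 19.8 CPM (-1.46), and Cks2, a partner of cyclin-dependent kinases, at 79.0 and 44.1 CPM (-0.84), and sub-cluster 4 held 82.5% and 61.4% of their wild-type UMIs. Bc1, a short noncoding RNA, stood at 75.8 and 35.6 CPM (-1.09), with 56.6% and 59.9% of its UMIs in sub-cluster 4. Without sub-cluster 4 the log2 ratios were 0.37 for Stmn1, -0.19 for Cks2 and -1.21 for Bc1.

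**Figure D4:**
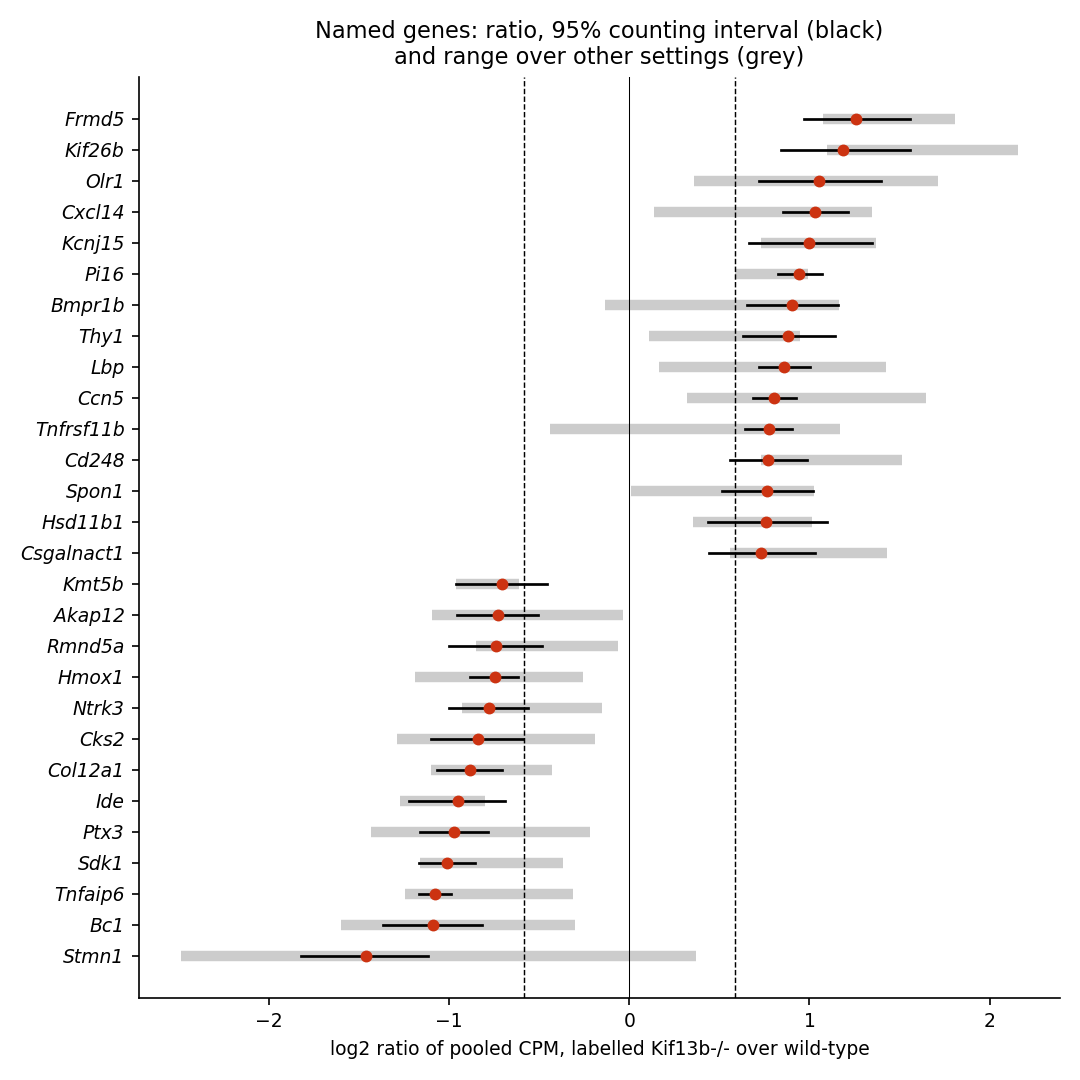
Log2 ratio of pooled CPM, library labelled Kif13b-/- over wild-type, for 28 named genes (red), with the 95% counting interval (black line) and the range over the other settings that gave a gene at least 50 UMIs (grey bar); dashed lines mark a ratio of 1.5. The grey bars of Frmd5, Kif26b, Kcnj15, Pi16, Cd248, Ide and Kmt5b stay outside the dashed lines, and those of Bmpr1b, Tnfrsf11b and Stmn1 cross 0.

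Gene lists are given as the number of genes measured (20 UMIs or more in the 2 libraries together) and the number called higher or lower. Over all 12619 genes with that many UMIs, 6.32% were higher and 6.47% lower. In the list of Pi16 and Dpp4 type genes 2 of 22 were higher and 3 lower, with a median log2 ratio of -0.05. Sema3c, a secreted guidance protein, stood at 107 and 67.5 CPM (-0.66), Procr, the protein C receptor, at 97.5 and 63.4 CPM (-0.62), and Efhd1 at 19.1 and 11.2 CPM. Cadm3 and Wnt2 were higher at under 12 CPM. The surface markers Ly6a (1038 and 994 CPM), Cd34 (218 and 218 CPM), Ly6c1 (359.6 and 380.1 CPM) and Mfap5 (447 and 549 CPM) stayed within a ratio of 1.5.

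Of the Col15a1 type genes 2 of 15 were higher, Cxcl14 and Hsd11b1, and 5 were lower, with a median of -0.03. Apod, a lipocalin, stood at 165 and 83.8 CPM (-0.98), but 1 wild-type barcode held 29.9% of its wild-type UMIs and glial barcodes held it at 431.5 and 1399 CPM. Fgf7, a growth factor for epithelium, stood at 125 and 80.5 CPM (-0.64). Penk, Inmt and Lpl were the other 3, at 16.1 to 74.5 CPM. Col15a1 itself stood at 339 and 432 CPM (0.35) and Cxcl12, the ligand of CXCR4, at 712 and 781 CPM (0.13), both within a ratio of 1.5.

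Matrix genes moved little in the pooled members. Of the 27 fibrillar collagen and maturation genes 2 were higher, Col5a3 and Loxl4, and 0 lower, with a median of 0.14. Col3a1 stood at 8792 and 10028 CPM (0.19) and Col1a1 at 3692 and 4245 CPM (0.20). Of 19 elastic fibre genes 0 were higher and 1, Fbln7, was lower, with a median of 0.21, and Eln, the gene of elastin, stood at 304 and 423 CPM (0.48), Fbn1 at 449.7 and 622 CPM (0.47). Of the 19 matricellular genes Ccn5 was higher and Thbs4 lower, and Fn1, the gene of fibronectin, stood at 7362 and 8274 CPM (0.17).

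Other matrix lists were of the same kind. Of 19 other collagens 0 were higher and 2 lower, Col12a1 and Col23a1. Of 12 small proteoglycans 0 were higher and 2 lower, Omd and Epyc, though Omd was at -0.27 without its highest barcodes, and Bgn, the gene of biglycan, stood at 3148 and 3922 CPM (0.32). Of 27 matrix proteases and inhibitors 1, Adamts4, was higher and 0 lower, and Mmp3, or stromelysin, stood at 3542 and 3291 CPM. Of 16 general fibroblast genes only Thy1 was higher, 0 were lower, and Gsn, the gene of gelsolin, stood at 3184 and 2330.3 CPM (-0.45). Of 20 myofibroblast and activation genes 1, Lrrc15, was higher and 1, Col12a1, lower.

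Inflammatory genes were mixed. Of 17 chemokines Cxcl14 and Cxcl13 were higher and Cxcl5 was lower, with a median of -0.01. The neutrophil chemokine Cxcl1 stood at 2448 and 1806 CPM (-0.44), and the monocyte chemokine Ccl2 at 1742 and 1488 CPM (-0.23), both within a ratio of 1.5. Of 19 cytokine and receptor genes Il4ra, the receptor chain for interleukins 4 and 13, was higher at 24.1 and 41.3 CPM (0.77), and Tnfaip6, Il17ra and Il1rn were lower. Without their highest barcodes Il1rn was at -0.37 and, among the complement genes that follow, C6 at -0.23. Il6 stood at 604 and 459 CPM (-0.40). Of 20 complement genes 0 were higher and 2 lower, Cfd and C6, both over 10 times the members' level in fat cell barcodes in at least 1 library, while C3, the central component, stood at 1094 and 1361 CPM (0.32). Of 25 interferon response genes Rsad2, Xaf1 and Zbp1 were higher and Igtp was lower, all under 17 CPM.

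The 4 higher genes among 17 genes of MHC class I and class II were all of class II. Cd74, the invariant chain, stood at 62.0 and 133 CPM (1.10), H2-Aa at 34.4 and 69.1 CPM, H2-Ab1 at 27.8 and 55.8 CPM, and H2-Eb1 at 36.8 and 69.9 CPM. Macrophage barcodes held Cd74 at 3087 and 2517 CPM, and the 6 macrophage markers in the members summed to 35.2 and 62.3 CPM. With stricter limits on smooth muscle and macrophage genes the log2 ratios of H2-Aa, H2-Ab1 and H2-Eb1 were -0.16, -0.39 and -0.092. Cd74 stood at 0.023 in that setting, which changed both limits at once. Sub-cluster 1, with its smooth muscle markers, held 86.3% and 81.4% of the Cd74 UMIs. The part of other cells' RNA in the class II difference was not tested.

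Signalling lists held calls in both directions. The Wnt, insulin-like growth factor and PDGF lists each held a larger share of lower calls than the 6.47% over all genes. The first 2 of these also held a larger share of higher calls than the 6.32% over all genes. Of 24 Wnt ligands and modulators Wnt2 and Rspo2 were higher and Wnt10b, Wnt16, Sfrp1, Sfrp5 and Wif1 lower, all under 47 CPM, while Sfrp4, a secreted Wnt inhibitor, stood at 572 and 832 CPM (0.54). Of 26 TGF-beta and BMP genes 1, Inhbb, was higher and 2 lower, Bmp3 and the BMP target Id1 at 84.3 and 55.0 CPM (-0.61). Of 12 genes of the insulin-like growth factor axis 3, Pappa, Pappa2 and Stc1, were higher and 2, Igfbp3 and Stc2, lower. Without their highest barcodes Sfrp1 was at -0.53 and Pappa at 0.54, both within a ratio of 1.5. Of 25 PDGF, FGF and VEGF genes 0 were higher and 4 lower, Fgf7, Pdgfb, Fgfr3 and Angptl7. Of 40 transcription factors Foxs1 and Osr2 were higher and Ebf2, Twist2, Gli1 and Gata4 lower, and Ebf2, a factor of fat precursor cells, stood at 39.0 and 22.3 CPM (-0.80).

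Of 24 adipogenic and lipid genes 0 were higher and 4 lower, Apod, Scd1, Lpl and Pparg. Without the barcode with the most UMIs of each gene in each library their log2 ratios were -0.57, -0.53, -0.58 and -0.43, all within a ratio of 1.5. All 4 were at over 10 times the members' level in fat cell or glial barcodes in at least 1 library, and the 6 fat cell markers in the members summed to 37.9 and 16.8 CPM. The part of free or admixed fat cell RNA in these 4 was not tested. Of 13 mitochondrially encoded transcripts 4 were higher and 0 lower, with a median of 0.50, and mt-Nd3 stood at 458 and 974 CPM (1.09), mt-Nd2 at 1195 and 2092 CPM (0.81). The mitochondrial share was also higher in the other barcodes of that library, as given above, so this difference was not limited to the members.

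Of 20 cell cycle genes 0 were higher and 11 lower, with a median of -0.88. Cenpf stood at 28.9 and 2.74 CPM, Ube2c at 23.8 and 4.50 CPM, and Top2a, a DNA topoisomerase of dividing cells, at 19.9 and 6.46 CPM. Only 5 wild-type barcodes, all in sub-cluster 4, held 82.2% of the wild-type UMIs of 8 mitotic genes. The share of members with at least 10 such UMIs was 1.18% (0.384% to 2.73%) in wild-type and 0.789% (0.163% to 2.29%) in the library labelled Kif13b-/-, and these intervals overlap. With at least 5 such UMIs the shares were 1.89% in wild-type and 2.37% in the library labelled Kif13b-/-. With at least 1 they were 13.0% and 18.9%, so the order depended on the limit. Over the whole list, the 5 barcodes with the most UMIs held 36.9% of the wild-type UMIs, and 353 barcodes had at least 1. Without sub-cluster 4 the list's median was 0.37, so its direction turned. Of 13 senescence and growth arrest genes 0 were higher and 2 lower, Igfbp3 and Cdkn2a, and Cdkn2a (30.2 and 12.5 CPM) had 91.2% and 85.9% of its UMIs in sub-cluster 4.

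Stress and housekeeping lists held no call or 1. None of 14 glucocorticoid and stress genes, 24 immediate early genes, 15 heat shock genes or 19 hypoxia and glycolysis genes was beyond a ratio of 1.5, with medians of -0.16, -0.17, -0.11 and -0.01. Fos, an immediate early factor, stood at 2031 and 1941 CPM and Egr1 at 1755 and 1607 CPM. Of 19 unfolded protein response genes 0 were higher and 1, Trib3, was lower. Of 8 caveolin and cavin genes 0 were higher and 1, Cav2, was lower, at -0.59 and at -0.57 without its highest barcodes.

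The genes nearest to the study's question showed little. Of 21 efferocytosis receptors and bridging molecules 0 were higher and 1, Mertk, was lower, at 70 and 59 UMIs or 18.5 and 11.6 CPM (-0.68, -1.21 to -0.16). Contractile smooth muscle held Mertk at over 10 times the members' level in at least 1 library, and the part of free RNA in this difference was not tested. Gas6, a ligand of MERTK and AXL, stood at 504 and 608 CPM (0.27), and Lrp1, a lipoprotein receptor that KIF13B is known to help internalise, at 981 and 1001 CPM (0.03). Of 23 kinesins and KIF13B partners 1, Klc2, was higher and 1, Kif21a, was lower, both under 12 CPM.

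**Figure D5:**
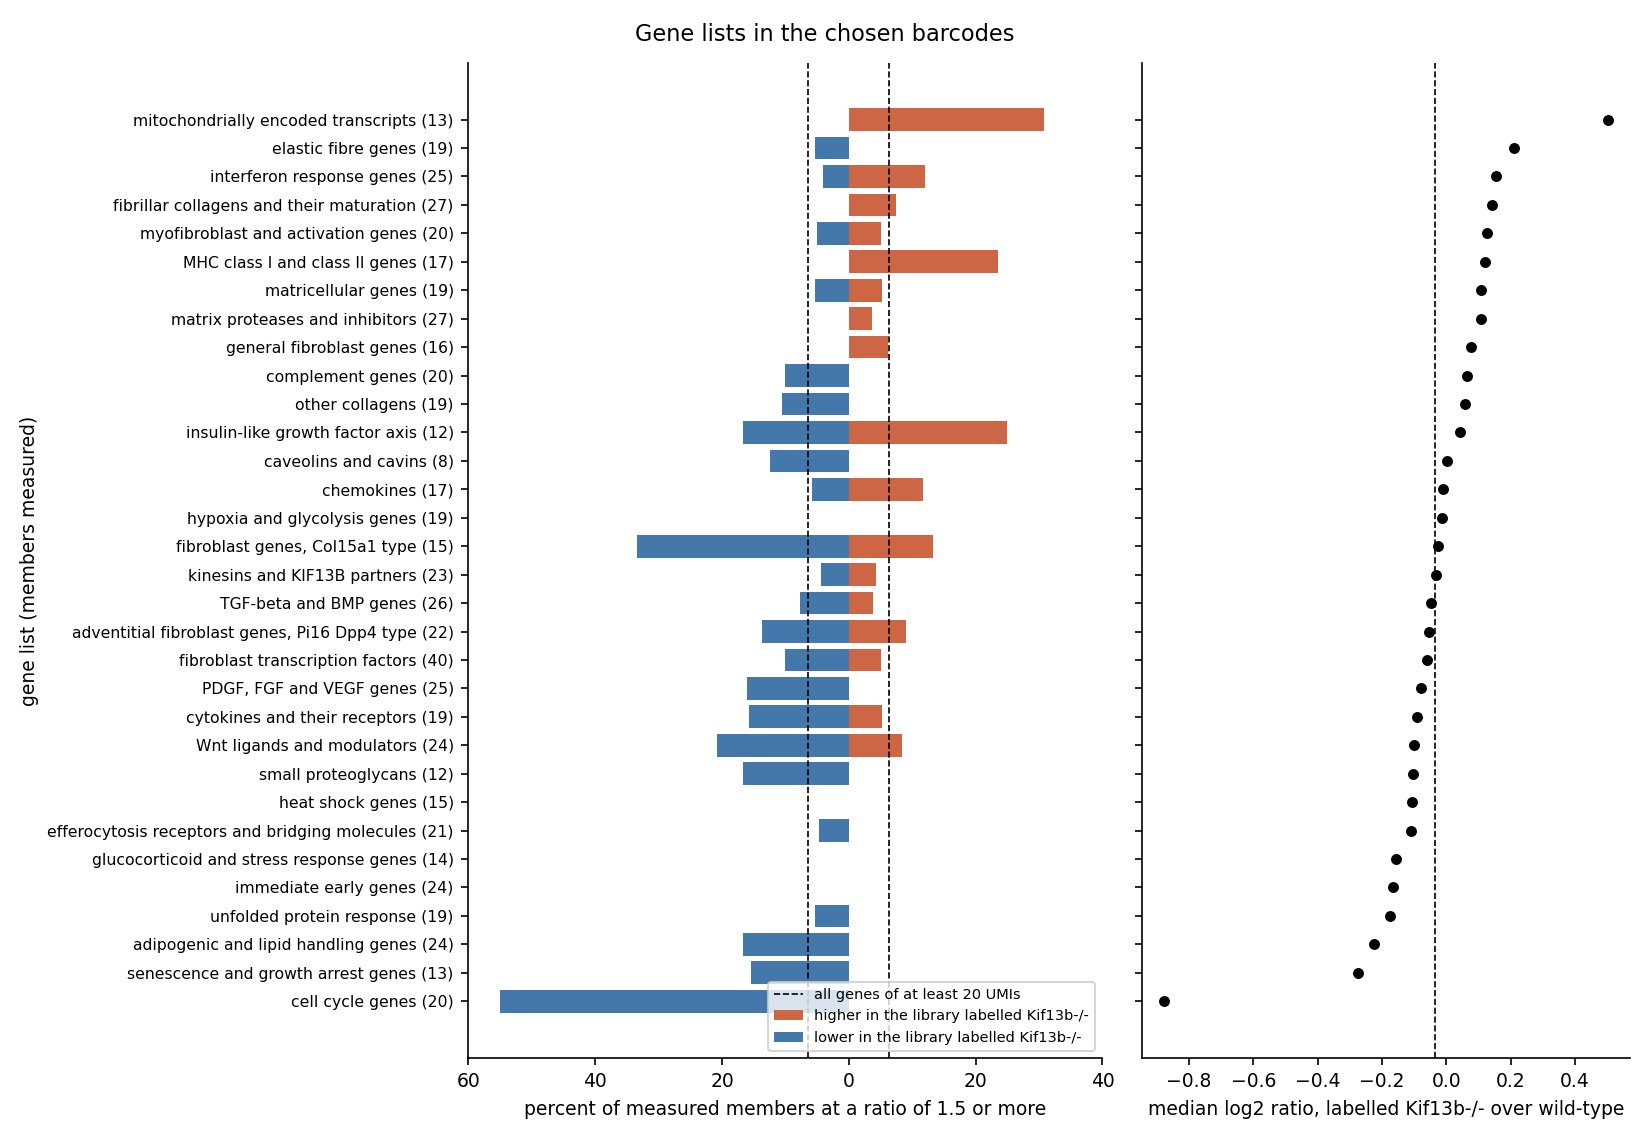
Left, percent of the measured members of each of 32 gene lists called higher (orange) or lower (blue) in the library labelled Kif13b-/-, with the number measured in parentheses and dashed lines at 6.32% and 6.47%, the shares over all 12619 genes with at least 20 UMIs. Right, the median log2 ratio of each list, with a dashed line at the median of all tested genes; cell cycle genes lie lowest at -0.88, though at 0.37 without sub-cluster 4, and mitochondrial transcripts highest at 0.50.

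Compared sub-cluster by sub-cluster, several groups of genes stood at different levels in the libraries although their pooled levels differed less. The sub-clusters came from these same data without integration. Whether a sub-cluster holds the same cells in both libraries was not tested. In sub-cluster 0, where 17.7% of 7807 genes with at least 20 UMIs were higher and 11.5% lower, 12 of 20 Pi16 and Dpp4 type genes were lower and 0 higher. Procr stood at 386 and 102 CPM (-1.91), Gfpt2, an enzyme of the hexosamine pathway, at 1294 and 489 CPM (-1.40), and Sema3c at 161 and 62.8 CPM (-1.35). Within the panel, Igfbp6 stood at 688 and 196 CPM (-1.81) and Clec3b at 897 and 404 CPM (-1.15), whereas Pi16 stood at 529 and 1020.5 CPM (0.95). Without the barcode with the most UMIs of each gene in each library, these log2 ratios were -2.32, -1.42, -1.68, -1.81, -1.21 and 0.90. Barcodes of sub-cluster 0 had medians of 9900 UMIs in wild-type and 16207 in the library labelled Kif13b-/-.

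In the same sub-cluster 7 of 16 chemokines and 5 of 18 cytokine and receptor genes were lower in the library labelled Kif13b-/-, and 2 of each were higher. Of 13 complement genes 3 were higher and 2 lower, and of 14 interferon response genes 4 were higher and 1 lower. Ccl2 stood at 5595 and 2124 CPM (-1.40), Cxcl1 at 5004 and 2611 CPM (-0.94), and Il6 at 1641 and 619.8 CPM (-1.40). Hmox1 stood at 833 and 203 CPM (-2.03) and Akap12 at 279 and 45.4 CPM (-2.60). Tnfaip6, itself among the genes that led this sub-cluster, stood at 3188 and 731 CPM, while it was level in sub-cluster 2 at 667 and 672 CPM. Some matrix genes stood the other way, such as Ccn5 at 57.2 and 468 CPM (3.02), Ltbp2, which binds fibrillin, at 247 and 733 CPM (1.57), and Timp3, a protease inhibitor, at 475 and 1596 CPM (1.75). Their lists were mixed, with 5 higher and 2 lower of 18 matricellular genes, 5 and 4 of 19 elastic fibre genes, and 4 and 1 of 25 proteases and inhibitors. Of 25 fibrillar collagen and maturation genes 6 were higher and 1 lower, and of 15 other collagens 5 were higher and 1 lower. Of 22 PDGF, FGF and VEGF genes 10 were higher and 5 lower, and of 24 immediate early genes 1 was higher and 7 lower. Weighting every barcode the same kept these directions, as with mean levels of 5579.8 and 3321 CPM for Ccl2 and 59.1 and 371 CPM for Ccn5. Markers of other cells also differed in sub-cluster 0. The chondrocyte markers summed to 257 CPM in wild-type and 824 CPM in the library labelled Kif13b-/-, and the fat cell markers to 48.3 and 4.83 CPM. The part of a differing make-up of the sub-cluster in these ratios was not tested.

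In sub-cluster 2, where 10.6% of 8032 genes were higher and 10.2% lower, matrix lists differed in their calls. Of 25 fibrillar collagen and maturation genes 6 were higher and 0 lower, and their summed level was 26756.5 CPM in wild-type and 42447 CPM in the library labelled Kif13b-/-. Of 18 other collagens 0 were higher and 4 lower, of 19 elastic fibre genes 6 were higher and 0 lower, and of 19 matricellular genes 3 were higher and 4 lower. The summed levels of these 3 lists were 5054 and 5464 CPM, 5301 and 6847 CPM, and 11148 and 15335 CPM. The median log2 ratio of the other collagens was 0.16. Col3a1 stood at 6047 and 14543 CPM (1.27), Fbn1, the gene of fibrillin-1, at 284 and 1012 CPM (1.83), Postn, or periostin, at 186 and 949 CPM (2.35), and Fn1 at 1839 and 4318 CPM (1.23). Without the richest barcode of each library the log2 ratios were 1.17, 1.35, 2.39 and 1.16. With every barcode weighing the same the Col3a1 means were 5721 and 7864 CPM, so the size of the difference leaned on deep barcodes. Col3a1 is part of the summed fibrillar collagen level above, which was pooled and not computed with equal weight per barcode. Of 18 Pi16 and Dpp4 type genes 5 were higher and 0 lower, with a median of 0.35, and of 15 Col15a1 type genes 0 were higher and 6 lower. Of 24 immediate early genes 0 were higher and 5 lower there, with a median of -0.46. Of 17 myofibroblast and activation genes 6 were higher and 0 lower, with a median of 0.49.

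In sub-cluster 1, where 8.96% of 9263 genes were higher and 10.2% lower, 0 of 19 Pi16 and Dpp4 type genes were higher and 4 lower. Its class II genes stood higher in the library labelled Kif13b-/-, with Cd74 at 199 and 449 CPM (1.17), beside macrophage marker sums of 51.3 and 131 CPM. In sub-cluster 4, where 8.22% of 9630 genes were higher and 9.61% lower, 14 of 17 cell cycle genes were lower and 0 higher. Pi16 had log2 ratios of 0.95, 0.48, 0.71 and 0.68 in sub-clusters 0, 1, 2 and 4, with only 6 and 13 UMIs behind the last. As Pi16 is part of the rule, these values are a description. Ide had ratios of -1.49, -0.86, -1.01 and -0.76. Whether barcodes of the same sub-cluster stand for the same cells in both libraries was not tested.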

How the data were processed

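Droplet libraries of mouse aorta, 1 wild-type and 1 labelled Kif13b-/-, were read from deposited UMI counts per gene and barcode, made by the authors with Cell Ranger 8.0.1 per the file headers and with mm10 per the submitters' processing notes; the annotation version was not given in these sources. Of 33696 features, 32012 (95.0%) matched GENCODE M21, which gave the coordinates. Per library, UMIs of all members were summed and scaled to CPM; log2 ratios used a prior of 0.5. Intervals are exact (Clopper-Pearson for shares, conditional binomial for ratios) at 95% and cover counting error only. With 1 library per genotype no p-value was computed. Genes needed 50 UMIs over both libraries, list members 20, and a call a ratio of 1.5. Genes named were Kif13b, the genes of the rule, and the 15 with the largest ratio in each direction among genes at 50 CPM or more in the higher library whose interval excluded equality. Ribosomal, mitochondrial, haemoglobin, receptor, sex-linked and unnamed genes, and genes over 10 times higher in another population, were left out of these. From each list up to 4 called and up to 4 of the most abundant genes were added; other genes named were chosen after their values were seen. Members and lists were chosen with earlier results of these data known. Sub-clusters came from Leiden clustering (scanpy 1.11.5, igraph 0.11.9, 1000 variable genes, 20 components, 15 neighbours, resolution 0.5, no integration), and their names are those of leading genes. Scrublet's automatic threshold called 0 doublets in either library and had not worked, so no doublet was removed; removing the highest scores was an alternative. Barcode sequences in common numbered 52. The ratio script was tested on simulated data. Python 3.11.15, numpy 2.4.6, scipy 1.17.1 and pandas 2.3.3 were used. Alternatives changed the limits of the rule, depth, weighting, scaling and gene minimum.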

Additional observations from a re-analysis of the deposited data

How the results depend on the processing

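No paired analysis was possible because each genotype had 1 library. The ratio of member shares stayed above 1 in 10 other settings: it was 1.57 with at least 3000 UMIs, 1.54 with barcodes thinned before the rule, 2.41 with at least 8 panel UMIs, 2.55 with at most 10% mitochondrial UMIs and 2.55 against Dcn-high barcodes alone. The number of higher genes was 138 with barcodes thinned before the rule, 184 in members of 1500 to 6000 UMIs, 162 with members thinned, 725 with equal weight per barcode, 797 at 20 UMIs per gene and 91 at 200. The number of lower genes was 267 with members thinned, 709 with equal weight, 817 at 20 UMIs and 88 at 200. The share of calls that were higher was 32.5%, 34.3% and 37.8% in the 3 settings with shallow barcodes. Among 21 settings, 4 of them chosen after seeing the data, some genes changed direction. S100a9 had log2 ratios of 4.62 with Dcn at 10000 CPM, 0.69 with the panel at 2000 CPM, 0.73 without high Scrublet scores and 0.10 with barcodes thinned before the rule. With stricter smooth muscle and C1q limits H2-Aa was at -0.16, H2-Ab1 at -0.39 and H2-Eb1 at -0.092, and H2-Eb1 was at -0.043 in sub-clusters 0, 2 and 7. With barcodes thinned before the rule Tnfrsf11b was at -0.44 and Procr at 0.40, and in members of 1500 to 6000 UMIs Bmpr1b was at -0.13 and Procr at 0.54. Without sub-cluster 4 Stmn1 and the median of the cell cycle list were each at 0.37. Tnfaip6 ranged from -1.25 to -0.31, Cxcl14 from 0.14 to 1.34 and Kif13b from -0.89 to -0.21. The cause of these shifts was not tested.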

Other observations

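Some differences between the libraries sat in very few barcodes. Cxcl13, the chemokine that attracts B cells, stood at 9.27 CPM in wild-type and 58.5 CPM in the library labelled Kif13b-/-, with UMIs in 9 and 15 barcodes. Sub-cluster 7, the 10 barcodes found only in that library, held 80.9% of its Cxcl13 UMIs there. Thbs4, a matricellular protein of tendon and vessel wall, had 74 wild-type UMIs in 8 barcodes, 1 of which held 54.1% of them, and 0 in the library labelled Kif13b-/-, at least 33.4-fold lower against a limit of 3 counts over that library's members. Lrrc15, a marker of matrix-making activated fibroblasts, had 3 and 63 UMIs, and 1 of 5 barcodes held 54.0% of those in the library labelled Kif13b-/-.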
